A study of Mus musculus with 24 samples.

Results

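The span from the neonatal to the adult mouse cochlea was described from 12 of the 24 arrays of the series, the 6 arrays of cochlea at P60 (postnatal day 60, when hearing is mature) and the 6 of cochlea at P3 (before hearing). At each age 3 arrays came from α9-/- mice (ko), which constitutively lack the Chrna9 gene of the α9 nicotinic acetylcholine receptor subunit, and 3 from wild type mice (wt). All mice were of the hybrid strain 129S6 x CBA/CaJ, backcrossed repeatedly to CBA/CaJ. Each array held RNA of 1 pool of cochleae of several mice, with fewer cochleae to a pool at P60 than at P3 by the study's methods. The knockout is in every cell of the animal and from before birth, and both ages carry it, so the genotype entered as a block and the ages were compared across it. The dissection took away visible cerebellar fragments, the semicircular canals and the auditory nerve, and left a mixture of sensory epithelium, lateral wall, ganglion, bone and whatever else adhered.

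Between these ages the cochlea turns from a growing into a working organ. In the first postnatal weeks the otic capsule around it ossifies from a cartilage model, with osteoclasts resorbing cartilage and bone as osteoblasts lay bone down. Over the same weeks the tectorial membrane is completed, the stria vascularis and the fibrocytes of the lateral wall come to maintain the potassium-rich endolymph, and the neurons of the spiral ganglion acquire fast synapses and myelin.

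Levels are log2 signals of 1 probe set per gene, the brightest of those naming 1 gene, and they compare arrays for a gene but not genes with each other. A difference is P60 minus P3 on the log2 scale with its standard error, from limma over all 18194 genes, and adjusted p-values are Benjamini-Hochberg adjusted. Genes with an adjusted p under 0.05 passed, and those that also differed by 1.5 or more on the log2 scale are called. Of all genes 2584 passed as higher at P60 (14.2%) and 2773 as lower (15.2%), of which 691 (3.8%) and 355 (1.95%) were called. The median difference over all genes was -0.06. In 903 of the 1046 called genes the 6 arrays at P60 and the 6 at P3 did not overlap. Calling itself selects genes whose ages stand apart, and the share over all genes was not counted, so this is no support for the calls. In whole tissue, fewer cells of a type and less RNA per cell cannot be told apart.

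Some arrays stood apart in their controls. The Gapdh 3′ control probe set exceeded the 5′ one by 6.66 in P60 wt replicate 1, by 6.67 in P3 ko replicate 2 and by 7.57 in P3 wt replicate 1, against -0.14 to 0.89 in the other 9. The gap did not separate the ages (median 0.11 at P60 and -0.06 at P3, difference of means -1.06, exact permutation test, two-sided, p = 0.764, n = 6 each). Poly-A control transcripts were near background in P3 ko replicate 1 and P3 wt replicate 3 and present in the other 10. With those 3 arrays left out 791 genes were called higher and 383 lower, and without the 2 lacking poly-A controls 624 and 380. Chrna9 gave a low signal everywhere, 5.35 to 5.43 in P60 ko against 5.68 to 6.40 in P60 wt, and 5.13 to 6.10 in P3 ko against 5.44 to 5.56 in P3 wt. Whether its probe sets lie in the deleted part was not given in the sources used here, so this does not check the genotype. Replicates within a group correlated at 0.924 or above over all genes.

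The largest fall was that of Oc90, which encodes otoconin 90, the main matrix protein of the otoconia of the vestibular organs. Its signal was 4.99, 5.22 and 5.74 (lowest, median and highest of 6 arrays) at P60, against 11.00, 11.36 and 11.93 at P3, a difference of -6.09 ± 0.20 (adjusted p = 1.1e-09). Every P60 array lay more than 5 log2 units below every P3 array. Panx3, a channel protein of cartilage and bone cells, had 4.25, 5.99 and 7.52 at P60 against 11.47, 12.22 and 12.26 at P3 (-6.06 ± 0.41, adjusted p = 4.1e-07). One of its 3 probe sets showed only -0.99. Agtr2, the type 2 receptor of angiotensin II, which is abundant in fetal tissues, had 3.22, 3.59 and 3.81 at P60 against 8.60, 8.69 and 9.44 at P3 (-5.31 ± 0.17, adjusted p = 1.1e-09). Within each age its arrays spread by less than 1 log2 unit.

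The largest rise was that of Chil3, a chitinase-like protein of neutrophils and activated macrophages. Its signal was 11.18, 11.94 and 12.38 at P60, against 3.84, 4.18 and 6.16 at P3, a difference of 7.41 ± 0.34 (adjusted p = 2.9e-08). Mmp12, the elastase of macrophages, had 7.16, 8.90 and 10.71 at P60 against 2.90, 3.35 and 3.74 at P3 (5.78 ± 0.43, adjusted p = 8.3e-07). The P60 arrays of Mmp12 spread widely. That the ages did not overlap was a condition for naming a gene among the largest rises and falls. Ppbp, a chemokine stored in platelets, had 10.78, 11.24 and 12.01 at P60 against 5.30, 5.90 and 6.94 at P3 (5.34 ± 0.30, adjusted p = 1.1e-07). The remaining members of the 6 largest rises were a muscle gene and a pair of cerebellar genes, Myh4, Gabra6 and Cbln3, and those of the falls were Myh8, Tectb and Col10a1, all given with their tissues.

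**Figure D1:**
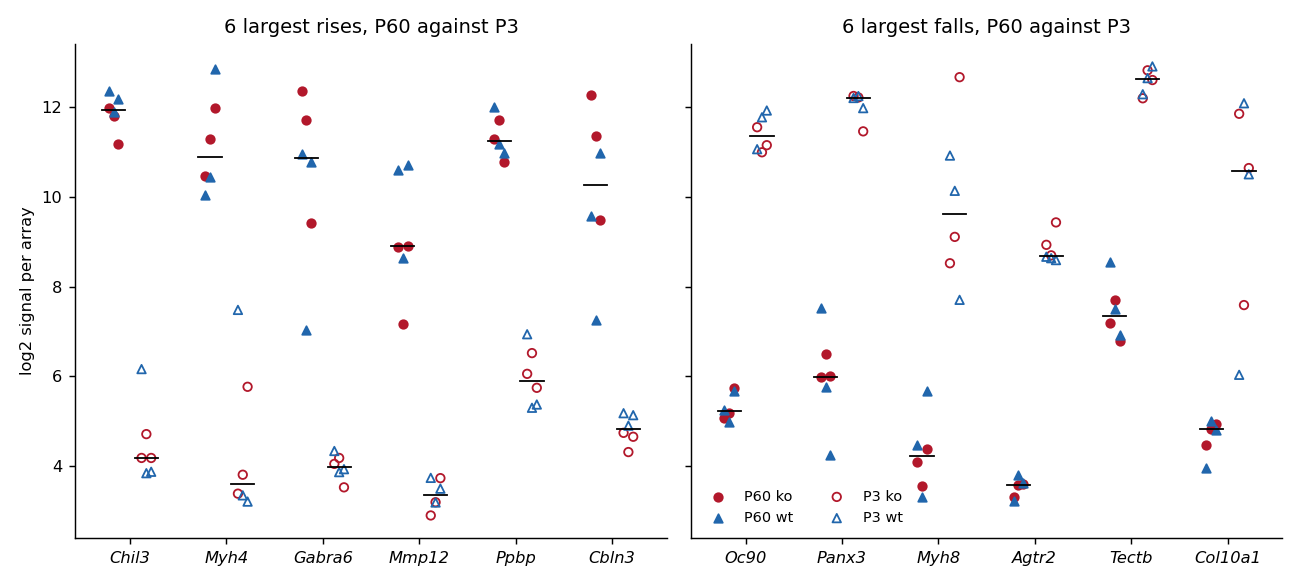
Log2 signal of each array (y axis) for the 6 genes of largest rise and the 6 of largest fall, P60 filled and P3 open, ko (α9-/-) as circles and wt as triangles, with a line at the median of 6 arrays. Only genes whose ages did not overlap were eligible, so the gap between the ages is a condition of the choice. The P3 arrays of Myh8 and Col10a1 and the P60 arrays of Gabra6 and Cbln3 spread over several log2 units.

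Genes of cartilage fell as a group. Of 22 measured genes of the cartilage matrix list 12 passed as lower and 2 as higher, with a median of -2.18. Col10a1, the collagen of hypertrophic cartilage, had 3.97, 4.82 and 5.01 at P60 against 6.04, 10.58 and 12.09 at P3 (-5.12 ± 0.88, adjusted p = 0.00072). Its P3 arrays were uneven, with the lowest values, 6.04 and 7.59, in wt replicate 1 and ko replicate 2, whose Gapdh 5′ signal was weak. Col2a1, the main collagen of cartilage, was even at both ages, with 8.87, 9.41 and 10.41 at P60 against 13.04, 13.70 and 14.00 at P3 (-4.10 ± 0.23, adjusted p = 9.7e-08). Matn1 (-5.11), a matrilin of cartilage, Col9a1 (-3.69), which coats type II fibrils, Snorc (-3.53), a proteoglycan of chondrocytes, and Matn4 (-3.41) fell likewise. Acan, the aggrecan core protein, fell by 2.14. Ucma, a protein secreted by chondrocytes of the resting and upper zones, went the other way, with 10.11, 10.70 and 11.13 at P60 against 6.15, 7.21 and 8.19 at P3 (3.48 ± 0.38, adjusted p = 2.1e-05). Chad was the other member that passed as higher (0.89).

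Genes of osteoclasts, the cells that resorb bone, fell in 11 of 12, with a median of -2.25. Ocstamp, needed for osteoclast precursors to fuse, had 4.43, 4.55 and 5.14 at P60 against 8.18, 8.93 and 9.36 at P3 (-4.16 ± 0.22, adjusted p = 6.9e-08). The fusion gene Dcstamp (-2.27), the collagen-degrading protease Ctsk (-2.86), the receptor Oscar (-2.53), the master transcription factor Nfatc1 (-2.48) and the acid phosphatase Acp5 (-2.31) fell with it. Mmp9, a protease listed with neutrophils and also made by osteoclasts, fell by 3.60. It had 8.96, 9.10 and 9.79 at P60 and 12.52, 12.93 and 13.04 at P3. Genes of osteoblasts and osteocytes passed as lower in 6 of 10 and as higher in none (median -0.82). Ifitm5 (-3.0), a membrane protein of mineralizing osteoblasts, led them. These falls were not steady over the ages. At P7 and P13 the median of the osteoblast and osteocyte genes stood 1.03 and 0.35 above P3. That of the osteoclast genes stood 0.42 and -0.50 from P3. Ibsp, the bone sialoprotein, remained strong, with 11.71, 12.02 and 12.47 at P60 against 13.40, 13.60 and 13.65 at P3 (-1.52 ± 0.15, adjusted p = 7.3e-06).

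The fall of matrix genes was not limited to cartilage. Of 24 collagens outside the cartilage list 20 passed as lower and 1 as higher (median -1.76). Col12a1, a collagen on the surface of type I fibrils, had 7.92, 8.24 and 8.63 at P60 against 10.95, 11.48 and 11.79 at P3 (-3.22 ± 0.17, adjusted p = 8.2e-08). The basement membrane chains Col4a1 and Col4a2 fell by 2.67 and 2.48, and Col6a3 by 2.62. Col4a4, a chain of the mature basement membrane network, was the exception, with 7.80, 8.13 and 8.96 at P60 against 6.67, 7.04 and 7.44 at P3 (1.20 ± 0.21, adjusted p = 0.00093). Enzymes and chaperones that modify, fold and cross-link collagen passed as lower in 17 of 19 (median -1.49), among them Serpinh1 (-2.54), the collagen chaperone, the cross-linking oxidases Lox (-2.52) and Loxl4 (-2.46), and the prolyl hydroxylase P3h1 (-2.22). The median of these enzymes and chaperones stood 0.42 and -0.51 from P3 at P7 and P13. Genes of elastic fibres passed as lower in 9 of 12 (median -1.52). Fbn2, the fibrillin of developing microfibrils, had 5.64, 6.22 and 7.63 at P60 against 10.35, 10.72 and 10.91 at P3 (-4.36 ± 0.28, adjusted p = 2.9e-07). Mfap2 (-3.45), Mfap4 (-2.57), both of microfibrils, and Eln (-2.42), elastin itself, also fell. Nid2 (-3.66), a linker of basement membranes, Adamts12 (-4.32), a secreted metalloprotease, and Col26a1 (-4.08) were among the 20 largest falls. Adamts12, Col26a1 and Mfap2 rested on 1 of 2 probe sets each, the other showing -0.44, -0.56 and -0.44. Loxl4 passed in 1 of 2, the other showing -1.33. Col12a1 passed in 2 of 4 probe sets and Lox in 2 of 3, with the weakest at -0.12 and -0.10. The falls of C1qtnf3, a secreted protein of cartilage, and Atp1b4, of perinatal muscle, also rested on uneven P3 pools. C1qtnf3 had 3.06, 3.26 and 3.38 at P60 against 5.17, 7.45 and 10.24 at P3 (-4.17), and Atp1b4 had 3.70, 3.94 and 4.67 at P60 against 6.02, 7.94 and 10.44 at P3 (-4.11). Aplnr, the apelin receptor of growing vessels, fell by 3.73, with 6.63, 7.79 and 8.71 at P60 against 10.91, 11.30 and 12.33 at P3.

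**Figure D2:**
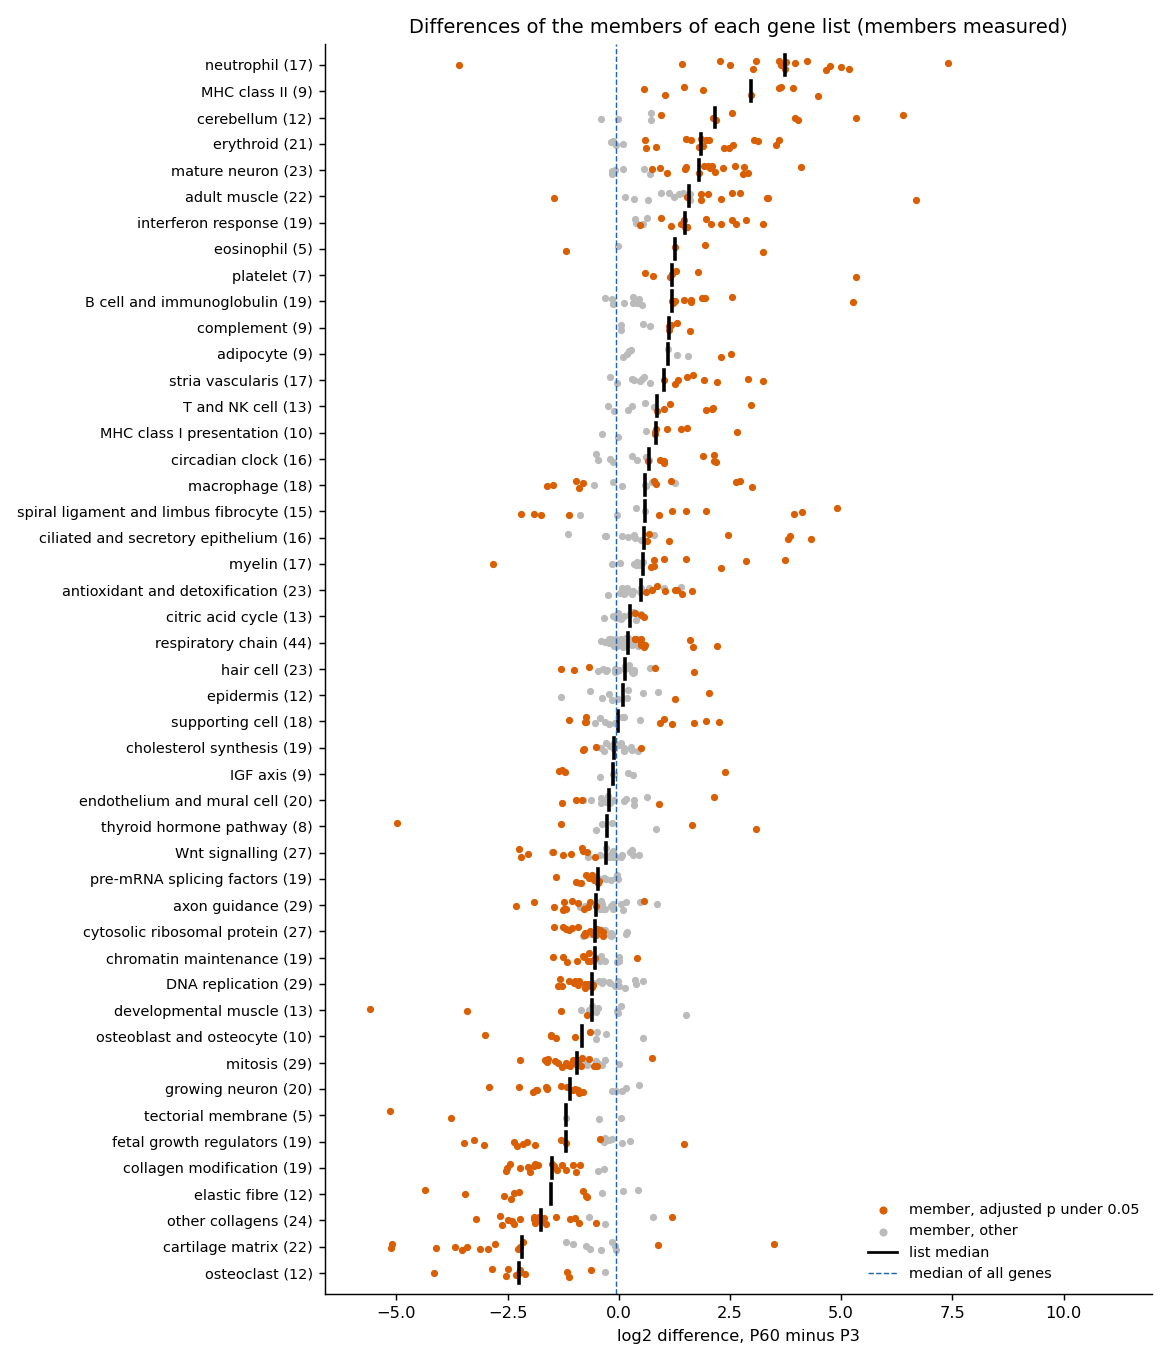
Log2 difference, P60 minus P3 (x axis), of every measured member of the 47 gene lists (y axis, ordered by median), with members of adjusted p under 0.05 in orange, other members in grey, list medians as black bars and the median of all genes dashed. Lists of osteoclast and matrix genes lie at the low end (medians of -2.25 to -1.49) and those of neutrophil, MHC class II and cerebellar genes at the high end (2.16 to 3.74).

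Genes of prenatal growth and of cell division were mostly lower. Of 19 fetal growth regulators 11 passed as lower and 1 as higher (median -1.19). Dlk1, an imprinted growth factor, had 5.25, 6.05 and 7.58 at P60 against 8.82, 9.14 and 11.75 at P3 (-3.49 ± 0.50, adjusted p = 0.00016). Mest (-3.26) and Grb10 (-3.04), both imprinted, and Hmga2 (-2.37), a chromatin protein of embryonic cells, fell too, as did Igf2 (-2.29), the fetal insulin-like growth factor. Lin28a, an RNA-binding protein of early development, was the member that was higher (1.47), and its other probe set gave -0.08. In the IGF axis list Igfbp6, which binds IGF2, was higher (2.4) and Igf1 (-1.34), Igfbp3 (-1.27) and Igfbp2 (-1.21) were lower, 1 and 3 of 9 genes.

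Of 29 genes of mitosis 21 passed as lower and 1 as higher (median -0.94). Kif20a, a kinesin of cytokinesis, had 5.13, 5.98 and 6.29 at P60 against 7.74, 8.11 and 8.45 at P3 (-2.21 ± 0.21, adjusted p = 6.5e-06). Bub1b (-1.67), of the spindle checkpoint, Aurkb (-1.64), the kinase of the chromosomal passenger complex, and Kif11 (-1.63), the kinesin that separates spindle poles, followed. Mki67, the proliferation antigen, was higher at P60, with 11.03, 11.34 and 11.70 against 10.33, 10.56 and 10.98 at P3 (0.74 ± 0.16, adjusted p = 0.004). Genes of DNA replication passed as lower in 15 of 29 and as higher in none (median -0.59), led by Gins2 (-1.36), Pole2 (-1.32), Rfc3 (-1.28) and Rfc5 (-1.13). The fall was not steady over the ages. At P7 and P13 the median of the mitosis genes stood -0.03 and 1.11 from the same P3 arrays, and that of the replication genes 0.03 and 0.96. The erythroid list, of cells that divide as they mature, stood 1.29 and 2.71 above P3 at P7 and P13 and 1.84 at P60, and its part in these values was not tested.

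Promoters of mitosis genes often hold a CCAAT box, bound by the factor NF-Y, and a cell cycle homology region, TTTGAA, bound by the DREAM and MuvB complexes. They are shown because the mitosis genes moved together. RefSeq promoter windows of GRCm38.p6, 300 bases around the start, were at hand for 24 of the 29 genes, as 26 windows. On either strand CCAAT occurred in 22 of the 26 (84.6%) against 37.4% of all 32851 windows, and TTTGAA in 21 (80.8%) against 17.9%. Both motifs occurred in 20 (76.9%), against 6.95% of all. A match is a description of the letters and no evidence of binding. Windows of 4 mitosis genes that hold both motifs are given 5′ to 3′ on the strand of the gene. Each motif, or its reverse complement ATTGG or TTCAAA, is in capitals. Members without a window that holds both were passed over, so these are not simply the largest falls. Kif20a, the mitosis gene of largest fall, and Aurkb are not among them. The absence of Kif20a is no evidence that it lacks the motifs.
Bub1b (chr2:118597961-118598260, plus strand): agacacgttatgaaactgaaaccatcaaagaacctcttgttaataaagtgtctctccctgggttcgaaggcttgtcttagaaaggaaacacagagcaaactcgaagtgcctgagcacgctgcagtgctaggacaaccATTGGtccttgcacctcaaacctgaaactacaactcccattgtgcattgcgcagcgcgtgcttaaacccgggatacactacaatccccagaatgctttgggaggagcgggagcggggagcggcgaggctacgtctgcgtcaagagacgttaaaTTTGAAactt
Kif11 (chr19:37376132-37376431, plus strand): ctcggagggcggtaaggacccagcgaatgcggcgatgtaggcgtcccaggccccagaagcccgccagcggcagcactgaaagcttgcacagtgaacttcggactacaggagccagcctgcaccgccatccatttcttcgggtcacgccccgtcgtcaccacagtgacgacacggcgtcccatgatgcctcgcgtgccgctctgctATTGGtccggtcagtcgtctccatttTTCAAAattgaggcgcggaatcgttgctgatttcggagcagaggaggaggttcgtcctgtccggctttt
Ttk (chr9:83834439-83834738, plus strand): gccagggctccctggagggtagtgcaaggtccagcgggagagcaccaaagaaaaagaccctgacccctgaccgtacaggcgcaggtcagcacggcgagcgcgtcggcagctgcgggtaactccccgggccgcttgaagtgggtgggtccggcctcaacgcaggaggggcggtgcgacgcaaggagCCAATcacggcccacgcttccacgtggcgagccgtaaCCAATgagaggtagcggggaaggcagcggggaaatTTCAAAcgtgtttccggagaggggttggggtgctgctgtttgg
Cdk1 (chr10:69352863-69353162, minus strand): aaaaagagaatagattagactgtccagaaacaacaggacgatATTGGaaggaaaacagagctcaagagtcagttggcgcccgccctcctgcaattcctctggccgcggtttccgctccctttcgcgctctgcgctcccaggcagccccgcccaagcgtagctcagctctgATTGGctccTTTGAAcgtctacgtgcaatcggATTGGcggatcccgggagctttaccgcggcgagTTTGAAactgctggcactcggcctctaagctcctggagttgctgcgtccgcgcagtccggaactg
Of these Bub1b, Kif11, Ttk and Cdk1 fell by 1.67, 1.63, 1.44 and 1.36. Bub1b and Kif11 hold 1 of each motif, Ttk holds 2 CCAAT boxes and 1 TTTGAA, and Cdk1, the kinase that starts mitosis, holds 3 and 2.

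Chromatin, splicing and ribosome genes shifted by less. Of 19 chromatin genes 10 passed as lower and 1, Suz12 (0.41), as higher (median -0.53), with Hmgb3 (-1.49) and the DNA methyltransferases Dnmt3a (-1.25) and Dnmt3b (-0.93) and the histone chaperone Nasp (-1.17) leading. Splicing factors passed as lower in 10 of 19 (median -0.47), among them the Sm proteins Snrpf (-1.40) and Snrpg (-0.96). Sfpq (-0.73) had 6 probe sets, of which 1 gave 0.21. Cytosolic ribosomal proteins passed as lower in 17 of 27 and as higher in none (median -0.53). Rpl14 had 6.34, 6.90 and 8.0 at P60 against 7.90, 8.29 and 9.15 at P3 (-1.45 ± 0.26, adjusted p = 0.001), and its arrays overlapped slightly. Rpl12 (-1.26), Rps19 (-1.19) and Rplp0 (-1.11) had arrays that did not overlap.

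Within the sensory epithelium and its coverings the clearest fall was that of the tectorins. Tectb, β-tectorin of the striated sheet of the tectorial membrane, had 6.80, 7.35 and 8.55 at P60 against 12.20, 12.63 and 12.91 at P3 (-5.14 ± 0.26, adjusted p = 5.8e-08). Tecta, α-tectorin, had 6.73, 7.21 and 7.30 at P60 against 10.23, 10.93 and 11.26 at P3 (-3.78 ± 0.17, adjusted p = 1.6e-08). Otog, otogelin of the same membrane, had 9.25, 9.79 and 10.34 at P60 against 9.19, 9.69 and 10.28 at P3 (0.04 ± 0.21), and the remaining 2 of the 5 measured genes of the list did not pass either. Tecta had covered 62.9% of its fall by P7 and 97.9% by P13, and its means at P3, P7, P13 and P60 were 10.76, 8.64, 7.01 and 6.97 in α9-/- and 11.02, 8.38, 7.36 and 7.25 in wild type. Tectb was still at 12.19 in α9-/- and 12.14 in wild type at P7, and at 8.38 and 8.25 at P13.

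Hair cell genes as a list hardly moved. Of 23 measured, 2 passed as higher and 3 as lower (median 0.13), and 6 and 3 passed when the 3 arrays with weak 5′ ends were left out. The mean of the list was 6.43 to 6.95 at P60 and 6.36 to 7.00 at P3, near the array median of 6.65. Low signals limit what a missing difference can show. Atp2b2, the calcium pump of stereocilia, which cerebellar neurons also express, had 9.53, 9.92 and 10.54 at P60 against 8.01, 8.29 and 8.66 at P3 (1.68 ± 0.17, adjusted p = 1.2e-05). Atoh1, the transcription factor that specifies hair cells and also cerebellar granule cells, had 4.98, 5.20 and 6.06 at P60 against 6.19, 6.61 and 7.09 at P3 (-1.29 ± 0.21, adjusted p = 0.00039). Gfi1 (0.82), a transcription factor shared with blood precursors, Tmie (-1.01), of the transduction channel complex, and Barhl1 (-0.68) were the others that passed. The defining markers Myo7a (-0.10 ± 0.17), Otof (-0.08 ± 0.18), Slc26a5 (-0.03 ± 0.16), Tmc1 (0.18 ± 0.28) and Pou4f3 (0.70 ± 0.53) did not pass. Slc26a5, the motor protein prestin of outer hair cells, lay at 4.33 to 4.81 at P60 and 4.25 to 4.92 at P3, a low signal for this probe set. Among supporting cell genes 6 of 18 passed as higher and 4 as lower (median -0.01). S100a1, a calcium-binding protein, had 12.89, 12.98 and 13.57 at P60 against 10.35, 10.78 and 11.46 at P3 (2.26 ± 0.20, adjusted p = 3.8e-06). The gap junction gene Gjb6 (1.97), connexin 30, its partner Gjb2 (1.21), connexin 26, and Glul (1.70), glutamine synthetase, rose. Genes of Notch and FGF signalling in the immature epithelium, Fgfr3 (-1.12), Jag1 (-0.77), Hey1 (-0.73) and Hes5 (-0.73), fell. The cell type behind the rises was not tested, and cerebellar genes rose in the same arrays.

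In the lateral wall, fibrocyte and stria genes were among the strongest rises. Slc4a11, a membrane transporter of fibrocytes, had 9.77, 12.04 and 12.79 at P60 against 6.58, 6.94 and 7.03 at P3 (4.90 ± 0.41, adjusted p = 2.3e-06). Otos, otospiralin, had 13.15, 13.91 and 14.04 at P60 against 9.05, 9.80 and 10.11 at P3 (4.11 ± 0.21, adjusted p = 6.9e-08). Coch, cochlin, a secreted protein mutated in hereditary deafness, had 13.74, 13.95 and 14.17 at P60 against 9.01, 10.08 and 10.61 at P3 (3.95 ± 0.22, adjusted p = 1.2e-07). These did not overlap between the ages. Otos had most of its rise by P7, with 12.30 in α9-/- and 12.57 in wild type, whereas Coch was still at 10.76 and 10.75. In the fibrocyte list 7 of 15 passed as higher and 4 as lower (median 0.59), and the matrix proteins Tnc (-2.19), Otor (-1.90) and Postn (-1.74) were among those lower. In the stria list 9 of 17 passed as higher and none as lower (median 1.02). Slc26a4, pendrin, the anion exchanger of spindle and root cells, had 10.05, 10.47 and 10.95 at P60 against 6.97, 7.22 and 7.88 at P3 (3.24 ± 0.21, adjusted p = 2.5e-07). Kcnj16 (2.91), Kcnj10 (1.34), the potassium channel of intermediate cells, and the melanocyte genes Dct (2.20) and Mlana (1.91) rose as well. Kcnq1 (0.47 ± 0.17, adjusted p = 0.053), Kcne1 (0.56 ± 0.24) and Bsnd (-0.19 ± 0.15), of marginal cells, did not pass. Dnase1, Inmt and Etnppl also rose, and the cell type behind them was not tested. Dnase1, a secreted nuclease, had 12.98, 13.56 and 14.07 at P60 against 8.70, 9.06 and 9.99 at P3 (4.41 ± 0.24, adjusted p = 8.2e-08). Inmt, a methyltransferase of indoles and amines, had 10.28, 10.43 and 10.89 at P60 against 5.80, 6.11 and 6.57 at P3 (4.34 ± 0.15). Etnppl, an enzyme of phospholipid metabolism, had 9.46, 10.04 and 10.89 at P60 against 5.24, 5.69 and 6.41 at P3 (4.37 ± 0.25).

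**Figure D3:**
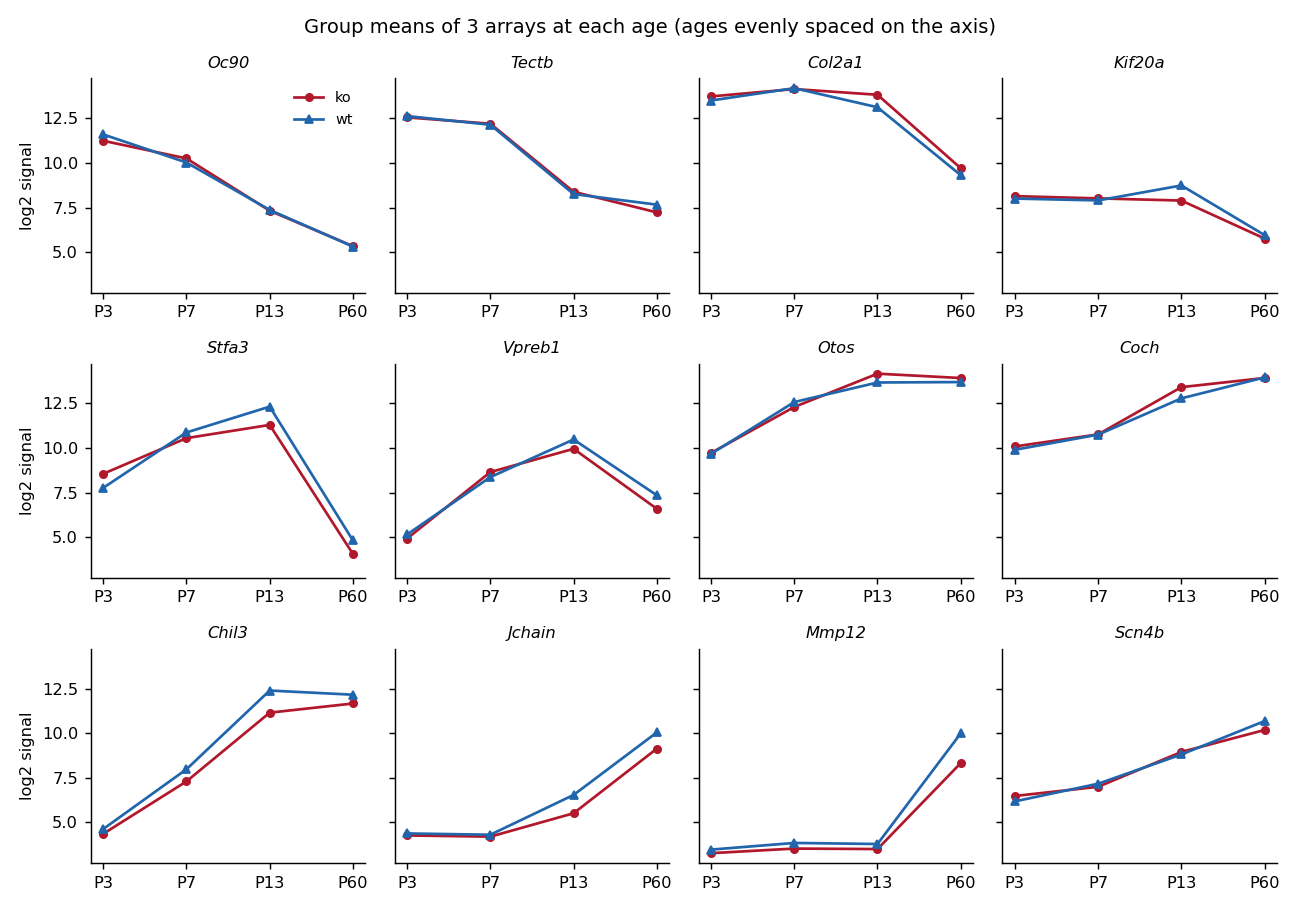
Mean log2 signal of 3 arrays (y axis) at P3, P7, P13 and P60 (x axis, evenly spaced) in ko (α9-/-, circles) and wt (triangles) for 12 named genes. Oc90 and Tectb descend over the ages, Col2a1 and Kif20a are still high at P13, Stfa3 and Vpreb1 are highest at P13, and Jchain and Mmp12 are highest at P60.

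Genes of growing and of mature neurons moved in opposite directions. Of 20 genes of growing neurons 15 passed as lower and none as higher (median -1.10). Dcx, doublecortin of migrating and extending neurons, had 4.73, 5.66 and 6.22 at P60 against 8.10, 8.35 and 9.13 at P3 (-2.93 ± 0.24, adjusted p = 2e-06). Tubb2b (-2.24), a neuronal tubulin, Basp1 (-1.92), a growth cone protein, and Sox11 (-1.86) fell with it. Axon guidance genes passed as lower in 13 of 29 and as higher in 1, Ntn1 (0.56), with Robo2 (-2.32), Sema3d (-1.90), Dcc (-1.46) and Sema3a (-1.26) leading (median -0.52). In the Wnt list 10 of 27 passed as lower and none as higher (median -0.29), led by Lef1 (-2.24), the inhibitors Dkk1 (-2.20) and Sfrp2 (-2.05), and Lgr6 (-1.47).

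Of 23 genes of mature neurons 17 passed as higher and none as lower (median 1.80). Scn4b, a sodium channel subunit of fast-firing neurons, had 10.04, 10.43 and 10.85 at P60 against 5.79, 6.29 and 6.86 at P3 (4.10 ± 0.23, adjusted p = 9.8e-08). Snap25 (2.90) and Vamp1 (2.82), of vesicle fusion, and Calb2 (2.78), calretinin, followed. The neurofilament gene Nefl rose (1.08 ± 0.23, adjusted p = 0.0032), while Nefm (0.69 ± 0.30) and Prph (0.56 ± 0.65), peripherin of type II ganglion neurons, did not pass. Cerebellar genes rose in the same arrays, with 8 of 12 passing as higher and none as lower (median 2.16). Gabra6, the GABA receptor subunit of cerebellar granule cells, had 7.05, 10.87 and 12.38 at P60 against 3.53, 3.99 and 4.34 at P3 (6.40 ± 0.67, adjusted p = 1.3e-05). Cbln3 (5.34), secreted by granule cells, Pcp2 (4.04), of Purkinje cells, En2 (3.96) and Cbln1 (2.55) rose too. The mean of the cerebellar list was 7.19 in P60 wt replicate 2 and 8.61 to 10.46 in the other 5 P60 arrays, against 6.46 to 7.32 at P3. The mature neuron genes averaged 10.70 in P60 wt replicate 2 and 10.04 to 10.82 in the other P60 arrays, against 8.60 to 9.40 at P3. The part of cerebellar tissue in the rise of neuronal genes was not tested. Glra3 (4.61), the α3 glycine receptor subunit, had 8.05, 8.70 and 9.44 at P60 against 3.32, 3.96 and 5.01 at P3 (adjusted p = 2.5e-07), with the other of its 2 probe sets at -0.09.

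Myelin genes passed as higher in 8 of 17 and as lower in 1 (median 0.55). Those of largest rise were of oligodendrocytes, which make the myelin of the brain. Mobp had 7.85, 10.62 and 11.23 at P60 against 5.30, 6.27 and 7.12 at P3 (3.74 ± 0.57, adjusted p = 0.0003), and Ermn (2.87) and Mog (2.3) rose too. Pmp2, a lipid-binding protein of Schwann cell myelin, fell by 2.84, and Pmp22, a main protein of peripheral myelin, did not pass (0.39 ± 0.21). The mean of the whole myelin list, Pmp2 included, was 9.69 in P60 wt replicate 2 and 8.92 to 9.36 in the other P60 arrays, against 7.89 to 9.06 at P3. It does not describe the oligodendrocyte genes alone. The part of cerebellar tissue in the rise of oligodendrocyte genes was not tested either.

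Genes of blood-forming and immune cells were among the largest rises. Of 17 neutrophil genes 16 passed as higher, all but Mmp9 (median 3.74), and Chil3 is described with the largest rises. Camp, the cathelicidin of neutrophil granules, had 11.84, 12.55 and 13.04 at P60 against 6.85, 7.34 and 8.18 at P3 (5.17 ± 0.25, adjusted p = 4e-08). Ngp (5.01), of the same granules, Lcn2 (4.75), which binds iron carriers of bacteria, Mpo (4.66), myeloperoxidase of the primary granules, and Slfn4 (4.76) were all among the 20 largest. Neutrophil genes were already high at P13, with a median of 4.02 over the same P3 arrays and of 2.05 at P7. Stfa3, a cysteine protease inhibitor of the stefin A cluster, followed another course, with means of 8.55, 10.55, 11.29 and 4.06 at P3, P7, P13 and P60 in α9-/- and 7.77, 10.87, 12.32 and 4.82 in wild type. Its P60 arrays were 3.73, 4.31 and 5.85 against 6.71, 8.38 and 9.08 at P3 (-3.72 ± 0.45, adjusted p = 4.5e-05), so that a gene of intermediate peak counts here as a fall.

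Erythroid genes passed as higher in 17 of 21 and as lower in none (median 1.84). Hemgn, hemogen of red cell precursors, had 10.30, 10.87 and 11.38 at P60 against 6.71, 7.06 and 8.27 at P3 (3.61 ± 0.29, adjusted p = 1.5e-06). Rhag (3.54), Car1 (3.12) and Slc4a1 (3.05), of the red cell membrane and cytosol, rose likewise, as did Alas2 (1.81), of heme synthesis. All 7 platelet genes passed as higher (median 1.21), and eosinophil genes in 3 of 5 (median 1.26), led by Prg2 (3.24), with Ccr3 lower (-1.18). At P13 the median stood 2.71 above P3 in the erythroid list, 1.74 in the platelet list and 2.65 in the eosinophil list. Each was above its median at P60.

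B cell genes passed as higher in 10 of 19 and as lower in none (median 1.19), after a median of 2.94 above P3 at P13. Jchain, the joining chain of secreted immunoglobulins, had 9.03, 9.18 and 11.26 at P60 against 4.18, 4.36 and 4.4 at P3 (5.26 ± 0.30, adjusted p = 1.1e-07). Igha (5.10), the heavy chain of IgA, and Igkv8-30 (4.45), a light chain variable segment of a family whose members share sequence, rose with it. The rise of Jchain came late, as its mean was at 4.2 and 5.51 in α9-/- at P7 and P13 and at 4.31 and 6.54 in wild type. Vpreb1, the surrogate light chain of B cell precursors, had instead 6.39, 6.67 and 8.23 at P60 against 4.24, 4.73 and 6.68 at P3 (1.93 ± 0.41, adjusted p = 0.0029) after a mean of 9.96 in α9-/- and 10.48 in wild type at P13. T and NK cell genes passed as higher in 7 of 13 and as lower in none (median 0.87), led by Il7r (2.97), Nkg7 (2.11) and Thy1 (2.09), which neurons also express, and Ccl5 (1.95). The mean of Il7r, like that of Vpreb1, was higher at P13, 9.27 in α9-/- and 10.18 in wild type, than at P60, 7.30 and 8.37. The cell type behind it was not tested.

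Among genes of antigen presentation, all 9 measured genes of the MHC class II list passed as higher (median 2.97). H2-Aa, the α chain of the class II molecule, had 10.88, 11.61 and 12.05 at P60 against 6.41, 7.04 and 8.15 at P3 (4.48 ± 0.27, adjusted p = 2.1e-07), and its 4 probe sets gave 4.06 to 4.48. Cd74 (3.91), the invariant chain, H2-Ab1 (3.64), H2-Eb1 (3.61) and H2-Ob (2.97) followed, and Ciita, the activator of these genes, rose by 0.57. Promoters of class II genes carry a Y box, a CCAAT box in reverse, bound by NF-Y as well. CCAAT or ATTGG occurred in 6 of the 7 promoter windows of 6 class II genes (85.7%), and on the strand of the gene as CCAAT in 14.3%, against 37.4% and 21.1% of all windows. TTTGAA occurred in none of the 7. This motif search in class II genes was chosen after the rise had been seen. They are shown to set genes that rose beside the mitosis genes, with CCAAT or ATTGG in capitals.
H2-Aa (chr17:34287774-34288073, minus strand): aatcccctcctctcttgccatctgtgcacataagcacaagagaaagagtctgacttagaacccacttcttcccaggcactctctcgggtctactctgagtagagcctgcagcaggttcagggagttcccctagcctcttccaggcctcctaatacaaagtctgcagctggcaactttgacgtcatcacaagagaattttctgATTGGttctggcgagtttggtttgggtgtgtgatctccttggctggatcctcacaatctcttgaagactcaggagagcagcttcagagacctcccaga
H2-Eb1 (chr17:34305617-34305916, plus strand): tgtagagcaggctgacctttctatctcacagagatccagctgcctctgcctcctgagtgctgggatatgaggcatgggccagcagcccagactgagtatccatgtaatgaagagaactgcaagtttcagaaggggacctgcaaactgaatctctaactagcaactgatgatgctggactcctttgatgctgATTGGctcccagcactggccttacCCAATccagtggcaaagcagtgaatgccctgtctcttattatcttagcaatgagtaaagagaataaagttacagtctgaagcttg
H2-Ob (chr17:34238655-34238954, plus strand): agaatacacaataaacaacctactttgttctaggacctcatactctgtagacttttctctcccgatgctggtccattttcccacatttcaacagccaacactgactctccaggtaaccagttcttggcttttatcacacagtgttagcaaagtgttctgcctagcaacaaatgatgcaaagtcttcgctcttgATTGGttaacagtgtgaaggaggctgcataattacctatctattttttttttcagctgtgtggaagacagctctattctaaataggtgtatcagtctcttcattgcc
The box occurs 1 time in H2-Aa, 2 times in H2-Eb1 and 1 time in H2-Ob.

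MHC class I genes passed as higher in 7 of 10 and as lower in none (median 0.83), with H2-K1 at 10.93 or above at P60 (median 12.47) against 10.04 or below at P3 (median 9.61) (2.66 ± 0.27, adjusted p = 1.2e-05). H2-D1 rose by 1.54, but 3 of its 9 probe sets gave the opposite sign, and class I genes are near-identical copies that probe sets may not tell apart. Interferon response genes passed as higher in 15 of 19 and as lower in none (median 1.49), led by the antiviral genes Ifit1 (3.25), Oasl2 (2.87), Ifit3 (2.64) and Ifi27l2a (2.54). Ifit1 had 7.77, 8.08 and 9.31 at P60 against 4.64, 4.88 and 5.76 at P3 (adjusted p = 1.8e-06). Complement genes passed as higher in 5 of 9 and as lower in none (median 1.13), led by Serping1 (1.59), the C1 inhibitor, Cfb (1.32), Cd55 (1.17) and C1ra (1.14). Macrophage genes divided, with 6 of 18 higher and 5 lower (median 0.60, but 0.03 in α9-/- and 0.85 in wild type). Lyz2, lysozyme, had 12.24, 12.96 and 13.38 at P60 against 9.45, 9.80 and 10.82 at P3 (2.99 ± 0.26, adjusted p = 2.5e-06), and Mpeg1 (2.72) and Ctss (2.64) rose, whereas Cd68 (-1.62), which osteoclasts also express, and Lyve1 (-1.47), of resident macrophages and lymphatic vessels, fell.

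Skeletal muscle genes changed isoform. Myh8, the perinatal myosin heavy chain, had 3.30, 4.24 and 5.67 at P60 against 7.71, 9.63 and 12.68 at P3 (-5.60 ± 0.71, adjusted p = 6.9e-05). Myh4, the fast type IIb myosin of adult muscle, had 10.05, 10.89 and 12.85 at P60 against 3.21, 3.60 and 7.48 at P3 (6.68 ± 0.74, adjusted p = 2.1e-05). Among developmental muscle genes 4 of 13 passed as lower and none as higher (median -0.60), with Myh3 (-3.41), the embryonic myosin, and Tnni1 (-1.30). Among adult muscle genes 10 of 22 passed as higher and 1, the slow myosin Myh7 (-1.46), as lower (median 1.59), with Myh1 (3.36), Mb (3.32), myoglobin, whose other probe set gave -0.23, and Atp2a1 (2.72), the calcium pump of fast fibres. Muscle signal as a whole varied between pools. The mean of the adult muscle list was 8.80 to 11.41 at P60 and 7.06 to 9.69 at P3, and the general markers Ckm (1.59 ± 0.84) and Acta1 (0.14 ± 0.66) did not pass. Without the 2 arrays lacking poly-A controls 4 of the 22 adult muscle genes passed as higher.

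**Figure D4:**
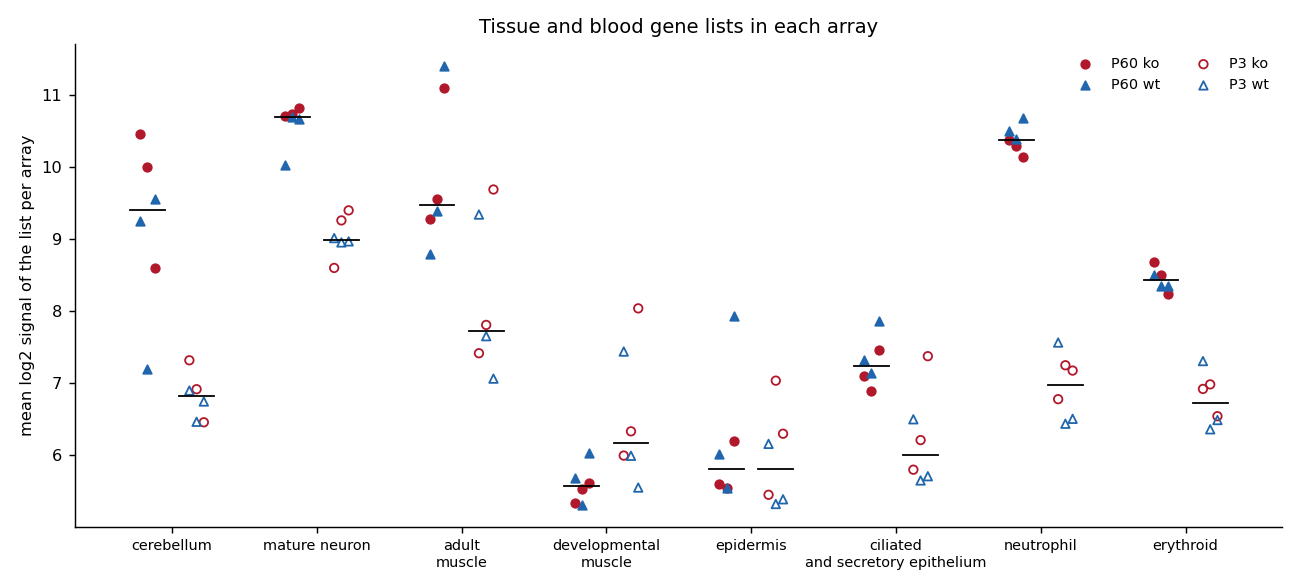
Mean log2 signal of the measured members of 8 gene lists in each array (y axis), P60 filled and P3 open, ko (α9-/-) as circles and wt as triangles, with a line at the median of 6 arrays. Neutrophil, erythroid and mature neuron lists separate the ages, the cerebellar list spreads between 7.19 and 10.46 at P60, and muscle and epidermal lists overlap between the ages.

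Genes of other adhering tissues were uneven too. Bpifa1, a secreted protein of airway and middle ear epithelium, had 13.26, 13.56 and 14.15 at P60 against 6.84, 8.73 and 13.38 at P3 (4.33 ± 0.86, adjusted p = 0.0019), and the ages overlapped. In its list of ciliated and secretory epithelium 7 of 16 passed as higher (4 without the arrays lacking poly-A controls) and none as lower (median 0.56), with Cyp2f2 (3.86), Sftpd (3.81) and Muc4 (2.46). Epidermal genes passed as higher in 2 of 12, Dmkn (2.03) and Sprr1a (1.25), while Krt14 (0.53 ± 0.64) and Krt10 (-0.15 ± 0.32) did not pass (median 0.09). Adipocyte genes passed as higher in 2 of 9, Scd1 (2.53) and Adipoq (2.29), with a median of 1.12. Endothelial and mural genes were mixed, with 2 of 20 higher and 3 lower (median -0.23), of which Vwf (2.14) differed most.

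Among genes of hormones and metabolism, Crym, a cytosolic protein that binds thyroid hormone, had 5.77, 5.97 and 7.25 at P60 against 10.52, 11.22 and 11.47 at P3 (-4.98 ± 0.23, adjusted p = 2.9e-08). It was already at 6.10 in α9-/- and 6.27 in wild type at P13, at hearing onset. In the thyroid hormone list 2 of 8 passed as higher, Thrsp (3.08) and Klf9 (1.65), and 2 as lower, Crym and Dio2 (-1.30), the deiodinase that activates the hormone (median -0.26). Clock genes passed as higher in 8 of 16 and as lower in none (median 0.67). Dbp, an output gene of the clock, had 10.37, 11.15 and 11.50 at P60 against 8.38, 8.78 and 9.33 at P3 (2.19 ± 0.23, adjusted p = 1.5e-05), with Nr1d1 (2.15), Per2 (2.14) and Nr1d2 (1.90). The hour of dissection was not given in the sources used here. Antioxidant and detoxification genes passed as higher in 8 of 23 and as lower in none (median 0.49), led by the glutathione transferases Gstm1 (1.65) and Gsta4 (1.41), the metallothionein Mt2 (1.31) and Aldh1a1 (1.26). Respiratory chain genes passed as higher in 10 of 44 and as lower in none (median 0.20), but in 18 when the arrays with weak 5′ ends were left out and in 2 without those lacking poly-A controls, and the 3 of largest rise, Cox8b (2.21), Cox7a1 (1.68) and Cox6a2 (1.61), are isoforms of heart and skeletal muscle. Citric acid cycle genes passed as higher in 3 of 13 (median 0.24), and in none without the arrays lacking poly-A controls, and the one of largest rise, Sucla2 (0.56), had 2 of 3 probe sets of opposite sign. Cholesterol synthesis genes passed as higher in 1 of 19 and as lower in 3 (median -0.10), among them Mvk (-0.80).

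Called genes mostly changed in the same direction in both genotypes. Within each genotype, 968 genes (5.32%) were called in α9-/- and 1157 (6.36%) in wild type. The α9-/- calls were 551 higher and 417 lower, and the wild type calls 829 and 328. Each difference came from that genotype's own 6 arrays, but both tests shared 1 fit and its residual variance, so the calls are not independent. Of these 723 were called in both, 74.7% of the α9-/- calls and 62.5% of the wild type calls, and all 723 in the same direction. Of the 968 genes called in α9-/-, 967 had the same sign in wild type, and 1153 of the 1157 the reverse way. A call requires a large difference, and the share of same signs over all genes was not counted. The differences correlated at 0.85 across the 18194 genes, which are not independent replicates. No gene passed the limma test of the interaction of age and genotype (0 genes, 0.0%, lowest adjusted p = 0.988), and 403 (2.22%) had an unadjusted p under 0.05. Among the 4 genes of smallest interaction p, Saa3, an acute phase protein, differed most. It had 6.22, 6.39 and 8.24 in P60 ko against 9.30, 9.45 and 9.98 in P60 wt, and 5.53 to 5.75 in every P3 array, differences of 1.28 in α9-/- and 3.96 in wild type. Without P60 ko replicate 1, the array at 8.24, Saa3 was the 1 gene that passed (interaction -3.32, adjusted p = 0.0089). The others, Il22ra2, Cxcl13 and P2ry10, had differences of -0.22, -0.34 and 1.57 in α9-/- and of 1.01, 0.96 and 3.05 in wild type. Missing the threshold does not show that the genotypes changed by the same amount. Some list medians differed between α9-/- and wild type, as in interferon response (0.90 and 2.07), complement (0.62 and 1.39) and T and NK cell genes (0.60 and 1.34). The cerebellar (2.69 and 1.63) and erythroid (2.05 and 1.59) medians differed the other way. Pooled medians average over such differences, which were not tested.

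**Figure D5:**
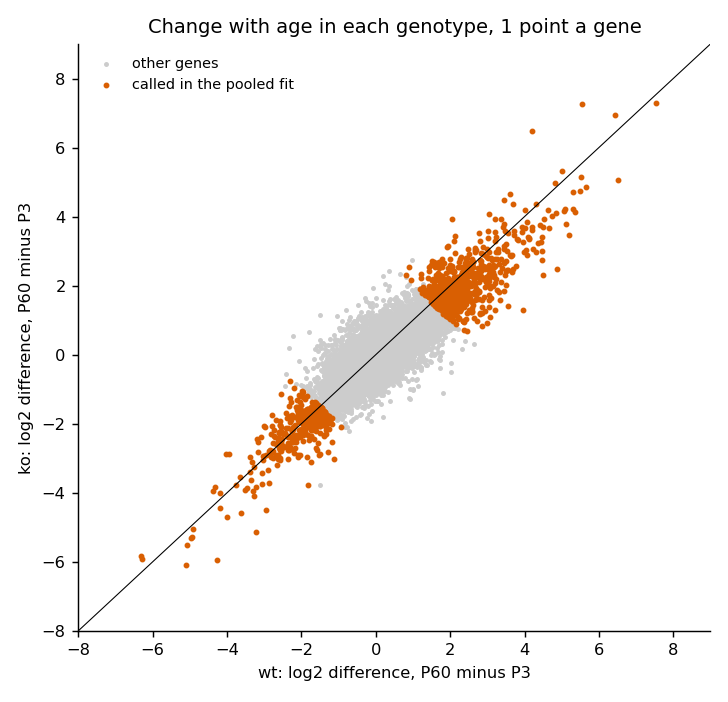
Log2 difference, P60 minus P3, in ko (α9-/-, y axis) and in wt (x axis), 1 point for each of 18194 genes, with the 1046 genes called in the pooled comparison in orange and the line of equality. Points lie along the line in both directions, and no gene passed the interaction test.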

How the data were processed

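RNA of pooled cochleae was measured on Affymetrix Mouse Genome 430 2.0 arrays. The deposited log2 signals were made by the authors in AffyPLM, which corrected the background as RMA does, normalized by quantiles and summarized probes by Tukey biweight. Array medians differed between ages, so the values were quantile-normalized again over all 24 arrays, which forces equal distributions on all ages. Of 45101 probe sets 34957 name 1 gene, 932 several and 9212 none in the annotation used here. The probe set of highest mean signal over the 24 arrays stood for each of 18194 genes. The 12 arrays at P60 and P3 were fitted with limma 3.58.1 in R 4.3.3 with genotype as a block, and with group means for each genotype and the interaction. A replicate is a pool, so precision is limited by how many arrays there are. The fit was tested on simulated data. Lists (818 members measured of 911) are described by counts and medians, with no set test. Figures were drawn with matplotlib 3.10.9, and summaries and the permutation test made with pandas 2.3.3 and scipy 1.17.1, in Python 3.11.15.

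The named genes are the 20 largest rises and falls among called genes whose arrays did not overlap, up to 4 members of a list of largest difference among those that passed, the cell type markers, Chrna9, and the 4 genes of smallest interaction p; other members were named after their values were seen. Predicted genes, unnamed clones and sex-linked transcripts of the X inactivation centre and the Y chromosome were left out. The members and lists were chosen with earlier results of these data known. Of 38 markers 34 were measured by a probe set of 1 gene, and the others were not analysed here. Alternatives covered the normalization, the choice of probe set, filters, the arrays in the fit, the genotype and replicate terms, array weights and leaving out arrays. The motif search in MHC class II promoters was added after the data were seen.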

Additional observations from a re-analysis of the deposited data

Results flagged for a closer look

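In 176 groups of 6 arrays, the highest or lowest array was set against the others by its gap to the nearest one as a share of the whole range of the group. The share passed Dixon's critical value at 95% in 16, where chance gives about 1 group in 20.

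Among the immunoglobulin genes P60 wt replicate 3 was high, with Jchain at 11.26 against 9.03 to 9.84 in the other P60 arrays (share 0.639), Igha at 13.17 against 10.45 to 11.39 (0.655) and Igkv8-30 at 11.20 against 8.53 to 9.46 (0.65). The mean of the epidermis list was also highest in that array, 7.94 against 5.54 to 6.20 (0.724). Inmt was highest in P60 wt replicate 2, 10.89 against 10.28 to 10.49 (0.658).

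P60 wt replicate 1, whose Gapdh control gap of 6.66 stood apart from -0.14 to 0.89 (0.849), had the highest Matn1, 5.36 against 4.18 to 4.35 (0.856), the highest Crym, 7.25 against 5.77 to 6.26 (0.669), and the lowest mean of the mature neuron list, 10.04 against 10.67 to 10.82 (0.807).

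At P3, wt replicate 1 was lowest in Col9a1, 12.89 against 13.52 to 13.80 (0.683), and in Nid2, 9.91 against 11.00 to 11.51 (0.68). P3 ko replicate 3 was lowest in Panx3, 11.47 against 11.98 to 12.26 (0.656), and highest in the means of the elastic fibre list, 10.67 against 9.73 to 10.03 (0.675), and of the endothelium and mural cell list, 9.32 against 8.59 to 8.80 (0.719). P3 ko replicate 2 was highest in Adamts12, 10.62 against 10.09 to 10.26 (0.671), and P3 ko replicate 1 lowest in Crym, 10.52 against 11.12 to 11.47 (0.627). The part of control signals or of tissue composition in these values was not tested.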

How the results depend on the processing

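With genes limited to those brighter than the median, so that fewer were tested, 328 were called higher and 216 lower at P60, 1541 passed as higher, and 536 and 570 were called in α9-/- and in wild type. With the 40% of genes of highest variance 1586 passed as lower, and with array weights 4244; the cause was not tested. Leaving out 1 array at a time gave 661 to 763 genes called higher, 345 to 412 lower, 2197 to 2809 passing as higher, 2259 to 3508 as lower, 816 to 1108 called in α9-/-, 962 to 1240 in wild type and 0 to 1 with an interaction, the 1 being Saa3 without P60 ko replicate 1. The Gapdh control difference ran between -2.14 and -0.01. With the deposited values 732 and 335 genes were called higher and lower, and with arrays centred on their medians 624 and 403, with the median over all genes at -0.03 and -0.13. With CCAAT counted on the strand of the gene alone, 61.5% of the mitosis promoters held it. The citric acid list had a median of -0.021 with the probe set of highest variance, which gave 0.21 for Sfpq and -1.25 for Sucla2, and the mean of probe sets gave -0.43 for Sucla2. Over the named genes, 2556 values in the other alternatives kept direction and side of the threshold, 46 lost it, 15 gained it and 3 reversed. Of the list medians in those alternatives 499 moved by less than the spread between replicates, 63 by more and 1 reversed, and with 1 array left out 550 and 14.

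Arrays of the same replicate number deviated together at r of 0.03 to 0.41, over 0.1 in 5 of 6 pairs. As the sixth missed that limit and no label ties the numbers to a shared batch or litter, they were not taken as pairs. The replicate block gave 693 genes called higher and 355 lower. Values near background, as for Slc26a5 and Chrna9, limit what a small difference can show.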
